A study of Mus musculus with 16 samples.

Results

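Livers of mice given resveratrol on a high-fat diet were compared with livers of mice on ordinary feed, to ask which differences from ordinary feed were present while the drug was given. The libraries were chosen by their diet labels, 4 of high-fat feed with resveratrol and 4 of ordinary feed, which makes 8 of the 16 libraries in the series. The mice were C57BL/6J, an inbred strain, and resveratrol was given by gavage at 100 mg/kg/day. The 4 libraries of high-fat feed alone are set beside them, and 4 libraries of mice given metformin (200 mg/kg/day) on the high-fat diet entered the same fit. The labels give an age of postnatal day 21 for every library without saying whether feeding began or tissue was taken then, and they name no sex, batch, cage or litter. Sample titles carry a prefix that the sources used here do not explain, and no prefix occurs in more than 1 group, so what differs by prefix between the groups cannot be told apart from the diet. Within groups the prefix also varies: the resveratrol titles carry 3 prefixes (on 2, 1 and 1 libraries) and the ordinary-feed titles 2 (on 3 and 1), so libraries that share a prefix may form sets.

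Resveratrol is a plant polyphenol studied for its effects on energy metabolism, among them on AMP-activated kinase and on the deacetylase Sirt1. High-fat feeding loads the liver with triglycerides and shifts the balance between fat synthesis, fat oxidation and glucose production. The deposited files list long non-coding RNAs, transcripts that are not translated, many of which lie in introns, in untranslated regions (UTRs) or beside the coding genes of these pathways.

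A feature here is a listed transcript, or the sum over the transcripts of an Ensembl gene, and its value is FPKM, reads scaled by transcript length and library total. Of 49988 features, 7413 reached an FPKM of 1 or more in 4 or more libraries and were tested. Coding gene symbols below give a feature's position in GRCm38 and not the level of the coding gene, because strand was not used and reads of overlapping RNAs cannot be told apart. A feature is called intronic or exonic by its place in a coding gene, and overlapping where it has several parts and only its outer limits are listed. The libraries held 20.8 to 24.0 M reads with resveratrol, 21.9 to 31.1 M on high fat alone and 17.2 to 25.7 M on ordinary feed. Of 108 marker genes of liver cell types few had a tested feature: the 8 marker lists gave 7 features, 3 lists (lymphocyte, erythroid, and adipocyte with exocrine pancreas) gave none, and 0 of the 7 were called against ordinary feed or had an unadjusted p under 0.05, beside 0.283% and 13.2% of all tested features, shares at which so few features say little. Hepatocyte markers gave 2 of the 7 features from 15 genes, as coding transcripts are not what the files list. Liver is a mixture of cells, and fewer cells of a type cannot be told apart from less RNA per cell. The p-values measure only the spread between these libraries.

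Few features were called between resveratrol on high fat and ordinary feed. That count shifted with the setting, to 2 without a filter on low values and 85 with library weights. A feature that was not called is not thereby shown to be unchanged. With limma, 21 of 7413 features had an adjusted p under 0.05 (0.283% of those tested). Of these, 11 were higher with resveratrol (0.148%) and 10 were lower (0.135%), and 979 had an unadjusted p under 0.05 (13.2%). The 4 values of 1 group lay above all 4 of the other for 736 features (9.93%), among them the 21 called ones. Under median-ratio scaling of the libraries the split was 22 higher and 13 lower. In the same fit 6 features were called between resveratrol and high fat alone (0.0809%), and 1085 between high fat alone and ordinary feed (14.6%). These comparisons share libraries, so their counts are not independent, and the standard error of a feature is the same in all 3 because they share 1 estimate of the spread. The median log2 change over all tested features was -0.04 for resveratrol against ordinary feed, 0.13 for resveratrol against high fat alone and -0.16 for high fat alone against ordinary feed. Median-ratio scaling brought all 3 to within 0.01 of 0.

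By position, 11 of the 21 called features were intergenic, 9 of them higher and 2 lower. All 4 intronic ones were lower, as was the 1 exonic feature, while the 5 overlapping features were 2 higher and 3 lower. Among tested features 21.7% were intergenic, 38.1% intronic and 15.2% overlapping. The log2 changes of those that were lower ran between -2.39 and -0.61, and those of the higher ones between 0.75 and 3.20. In 20 of the 21, every library of the higher group had at least 10 reads on the feature. The exception, NONMMUT015589.2, had 7 to 15 reads with resveratrol and 1 to 2 on ordinary feed.

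The feature that fell most clearly lay in the 3′ UTR of Agfg1, a gene for an ArfGAP-domain protein with nucleoporin-like repeats. NONMMUT001706.2 (chromosome 1, 82896322 to 82901182) had 0.0875, 0.103, 0.0988 and 0.0808 FPKM with resveratrol, against 2.42, 2.35, 2.73 and 3.52 FPKM on ordinary feed. The resveratrol values rest on 9 to 12 reads per library and the ordinary-feed values on 203 to 345. On high fat alone the values were 0.0908, 0.112, 0.0360 and 0.0563 FPKM, and with metformin they lay between 0.0647 and 0.140 FPKM. The feature was thus near 0 in all 12 libraries of mice on high fat and above 2 in all 4 on ordinary feed. Resveratrol differed from ordinary feed by -1.77 on the log2 scale (SE 0.12, limma adjusted p = 2.17e-06) and from high fat alone by 0.03 (SE 0.12, limma adjusted p = 0.933). High fat alone differed from ordinary feed by -1.80 (SE 0.12, limma adjusted p = 1.78e-06). It was the 1 called feature of the 21 with an adjusted p of at most 0.01. It was also the only one called without each of the 8 libraries of the 2 groups in turn.

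A feature overlapping Camk2b, a subunit of a calcium- and calmodulin-dependent kinase, had the lowest log2(FPKM + 1) change of the 21 called features. The assembled transcript MSTRG.5260.1 (chromosome 11, 6005682 to 6012919) had 1.12, 1.503, 0.832 and 2.03 FPKM with resveratrol. It had 3.52, 5.14, 6.42 and 13.9 FPKM on high fat alone, and 10.3, 12.5, 15.1 and 8.04 FPKM on ordinary feed. The resveratrol libraries lay below all libraries of both other groups, and the high-fat libraries overlapped those on ordinary feed. The mean was 1.37 ± 0.518 FPKM with resveratrol and 11.5 ± 3.02 FPKM on ordinary feed (SD, n = 4 each). The log2 change was -2.39 against ordinary feed (SE 0.41, limma adjusted p = 0.0264) and -1.68 against high fat alone (SE 0.41, limma adjusted p = 0.111). High fat alone had -0.71 against ordinary feed (SE 0.41, limma adjusted p = 0.238). Metformin libraries had 1.56 to 9.18 FPKM. The call against ordinary feed was made in 1 of the 8 fits that leave out a library.

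At loci of liver metabolism, features beside Pck1 and within Gldc and St3gal5 fell against ordinary feed while lying, on average, above high fat alone. Pck1 encodes the rate-limiting enzyme of glucose production. A transcript 4.67 kb upstream of it, NONMMUT041549.2 (chromosome 2, 173142376 to 173148383), had 0.833, 0.758, 1.06 and 0.333 FPKM with resveratrol. The values were 0.0802, 0.456, 0.0398 and 0.571 FPKM on high fat alone and 2.31, 2.38, 2.52 and 2.25 FPKM on ordinary feed. The resveratrol libraries were all below those on ordinary feed and overlapped those on high fat alone. It changed by -0.96 on the log2 scale against ordinary feed (SE 0.15, limma adjusted p = 0.0234) and 0.45 against high fat alone (SE 0.15, limma adjusted p = 0.206), while high fat alone had -1.41 against ordinary feed (SE 0.15, limma adjusted p = 0.000238). The same interval is listed for NONMMUT041547.2, the linked feature with the highest mean, which had 1.92, 1.71, 1.79 and 2.01 FPKM with resveratrol, against 4.03, 3.64, 2.94 and 1.99 FPKM on ordinary feed. Its change of -0.51 did not pass (SE 0.14, limma adjusted p = 0.121). In all, 5 other tested transcripts overlap NONMMUT041549.2, with changes between -0.84 and 0.00 and adjusted p-values between 0.0621 and 0.998. Reads can be divided among such transcripts in more than 1 way, so the call of a single one is uncertain.

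Gldc encodes the decarboxylase of the glycine cleavage system, and an intronic feature of it was called against both other groups. NONMMUT034407.2 (chromosome 19, 30164751 to 30165769) had 1.90, 1.51, 1.23 and 1.54 FPKM with resveratrol. It had 0.649, 0.568, 0.344 and 0.626 FPKM on high fat alone, and 3.30, 2.91, 3.55 and 3.46 FPKM on ordinary feed. The 3 groups did not overlap, and resveratrol lay in the middle. Its log2 change was -0.76 against ordinary feed (SE 0.12, limma adjusted p = 0.0234) and 0.72 against high fat alone (SE 0.12, limma adjusted p = 0.0314). High fat alone had -1.48 against ordinary feed (SE 0.12, limma adjusted p = 9.71e-06). The fits that leave out a library called the difference from ordinary feed in 5 of 8 and that from high fat alone in 3 of 8. No other listed transcript overlaps this interval. Metformin libraries had 0.838 to 1.63 FPKM there, a range that overlapped that of resveratrol.

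St3gal5 encodes the sialyltransferase that makes the ganglioside GM3. Gm29438 (chromosome 6, 72104201 to 72106813), an Ensembl gene in an intron of St3gal5 on the same strand, had 3.13, 3.51, 2.22 and 2.96 FPKM with resveratrol. It had 2.30, 1.62, 1.69 and 1.06 FPKM on high fat alone, and 4.61, 9.05, 6.56 and 6.54 FPKM on ordinary feed. All resveratrol libraries lay below those on ordinary feed, and 1 of them lay within the range of high fat alone. The log2 change was -0.94 against ordinary feed (SE 0.18, limma adjusted p = 0.0425) and 0.58 against high fat alone (SE 0.18, limma adjusted p = 0.183). High fat alone had -1.52 against ordinary feed (SE 0.18, limma adjusted p = 0.000592).

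The other lower features lay at genes of signalling, membrane contact and transcription. A multi-part transcript overlapping Prkd3, a kinase of the protein kinase D family (NONMMUT101464.1, chromosome 17, 78984682 to 78985503), averaged 1.12 ± 0.379 FPKM with resveratrol, 0.746 ± 0.197 FPKM on high fat alone and 3.30 ± 0.891 FPKM on ordinary feed (SD, n = 4 each). An intronic feature of Sox5, a transcription factor (NONMMUT150756.1, chromosome 6, 144420617 to 144421118), averaged 1.14 ± 0.197, 1.02 ± 0.252 and 2.61 ± 0.445 FPKM in the same order. Their log2 changes against ordinary feed were -1.02 (SE 0.17, limma adjusted p = 0.0261) at Prkd3 and -0.76 (SE 0.14, limma adjusted p = 0.0332) at Sox5. Against high fat alone they were 0.26 (SE 0.17) and 0.09 (SE 0.14), neither of which passed.

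Esyt1 encodes a tether between the endoplasmic reticulum and the plasma membrane, and a pair of features there fell. NONMMUT008165.2, which overlaps the gene (chromosome 10, 128511361 to 128514147), had 0.473 to 0.932 FPKM with resveratrol, 0.480 to 0.846 FPKM on high fat alone and 1.41 to 2.11 FPKM on ordinary feed. NONMMUT008164.2, 2.07 kb downstream (128505457 to 128507896), had 0.483 to 0.827, 0.542 to 0.672 and 1.23 to 1.85 FPKM in those groups. For both, the resveratrol and high-fat ranges overlapped and lay below ordinary feed. The log2 changes against ordinary feed were -0.74 (SE 0.12, limma adjusted p = 0.0234) and -0.63 (SE 0.11, limma adjusted p = 0.0332), and against high fat alone they were -0.00 and 0.03. Each overlaps 1 other tested transcript, and neither of those was called (log2 changes -0.53 and -0.35). C430039J01Rik (chromosome 7, 116409847 to 116410803), in an intron of the phosphoinositide kinase gene Pik3c2a, had 0.642, 0.785, 0.753 and 0.456 FPKM with resveratrol. It had 0.476 to 0.640 FPKM on high fat alone and 1.27, 1.79, 1.44 and 1.61 FPKM on ordinary feed, with a log2 change of -0.61 between resveratrol and ordinary feed (SE 0.10, limma adjusted p = 0.0254).

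**Figure D1:**
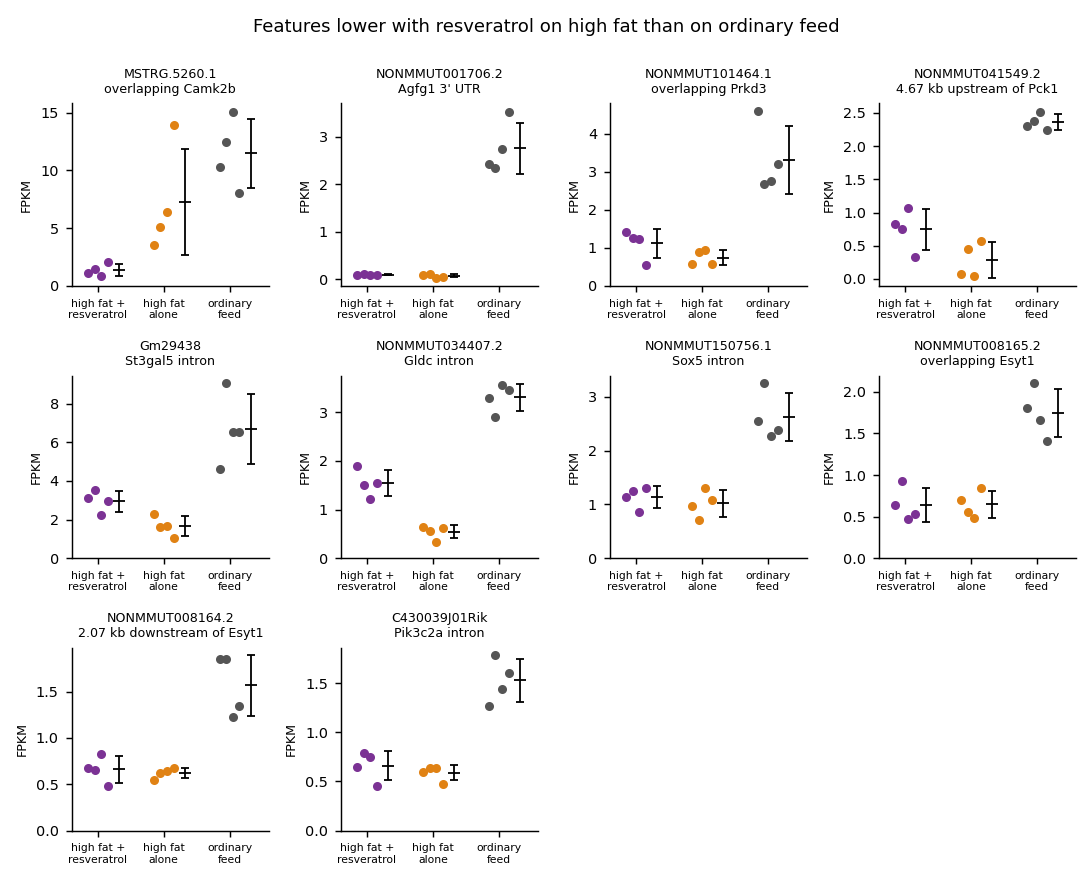
The 10 features that were lower with resveratrol on high fat than on ordinary feed, 1 panel each, with FPKM on the y axis. Points are single libraries (4 per group) and bars are the mean ± SD. In every panel the 4 resveratrol libraries lie below the 4 on ordinary feed. At Gldc they also lie above the 4 on high fat alone, and at Camk2b below them.

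Gm29438 and C430039J01Rik are the lower features whose sequence the GENCODE M21 transcript file holds. The first 120 bases of each transcript, 5′ to 3′, are given to identify the listed transcript. They do not show which RNA gave the reads, as both lie in introns of coding genes on the same strand. Gm29438 is 2613 bases long and C430039J01Rik 957, each in 1 exon.
Gm29438: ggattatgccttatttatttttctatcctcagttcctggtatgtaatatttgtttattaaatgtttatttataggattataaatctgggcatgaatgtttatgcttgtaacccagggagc
C430039J01Rik: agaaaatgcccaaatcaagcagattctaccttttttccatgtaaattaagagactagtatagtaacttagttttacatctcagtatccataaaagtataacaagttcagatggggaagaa

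Of the called features, the highest log2(FPKM + 1) change lay in the Cyp2c cluster on chromosome 19, whose genes encode cytochrome P450 enzymes of drug and fatty acid metabolism. The assembled transcript MSTRG.21777.1 (39262434 to 39264250, 340 bases in several parts) lies 5.16 kb upstream of the start that GENCODE M21 gives for Cyp2c29. It had 15.99, 14.7, 8.19 and 13.6 FPKM with resveratrol (58 to 120 reads). On high fat alone it had 4.28, 1.80, 0.643 and 0.536 FPKM (4 to 33 reads), and on ordinary feed 0, 1.49, 0 and 1.02 FPKM (0 to 13 reads). All 4 resveratrol libraries lay above every library of both other groups. The log2 change was 3.20 against ordinary feed (SE 0.59, limma adjusted p = 0.0377) and 2.48 against high fat alone (SE 0.59, limma adjusted p = 0.110), and high fat alone had 0.72 against ordinary feed (SE 0.59, limma adjusted p = 0.413). With metformin 1 library had 12.3 FPKM and the other 3 had 0.383 to 2.91. The call against ordinary feed was lost without any 1 of the 8 libraries, while the change stayed between 3.01 and 3.44.

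A pair of pseudogenes of the major urinary proteins (Mup) also rose. Mup proteins are pheromone carriers made in the liver under growth hormone control, from a cluster of related genes on chromosome 4. Mup-ps8 (60756812 to 60759526) had 3.47, 2.37, 2.20 and 2.40 FPKM with resveratrol, 1.38, 2.01, 1.28 and 0.418 FPKM on high fat alone, and 0.426, 0.572, 0.350 and 0.0912 FPKM on ordinary feed. Its resveratrol libraries lay above all those on high fat alone and on ordinary feed. With metformin it had 1.95, 0.937, 1.03 and 2.48 FPKM, which overlapped the resveratrol range. The log2 change with resveratrol was 1.41 against ordinary feed (SE 0.23, limma adjusted p = 0.0234) and 0.71 against high fat alone (SE 0.23, limma adjusted p = 0.186). High fat alone had 0.70 against ordinary feed (SE 0.23, limma adjusted p = 0.0508). Mup-ps14 (61608292 to 61610983) had 2.58, 1.88, 1.53 and 2.05 FPKM with resveratrol, 3.65, 2.66, 3.04 and 0.600 FPKM on high fat alone, and 0, 0.220, 0 and 0.0934 FPKM on ordinary feed. Its resveratrol libraries held 17 to 29 reads and those on ordinary feed 0 to 3, and the resveratrol range lay within that of high fat alone. The log2 change was 1.48 against ordinary feed (SE 0.27, limma adjusted p = 0.0365) and -0.12 against high fat alone (SE 0.27, limma adjusted p = 0.849), and high fat alone had 1.59 against ordinary feed (SE 0.27, limma adjusted p = 0.00430).

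The Mup sequences are shown because their likeness bears on how reads were assigned. Over 532 aligned bases the pair is 96.6% identical, with 18 differing bases and 1 gap. Against the transcripts of 22 coding Mup genes that align over at least 400 bases, Mup-ps8 is 77.4% to 90.2% identical and Mup-ps14 77.7% to 91.0%. How reads that fit several copies were handled was not found in the sources used here, so each pseudogene's level is uncertain. The 5′ stretches of both transcripts from GENCODE M21 are aligned from their shared start, which is base 13 of Mup-ps8 and base 1 of Mup-ps14, and capitals mark bases that differ or lack a partner in the other.
Mup-ps8: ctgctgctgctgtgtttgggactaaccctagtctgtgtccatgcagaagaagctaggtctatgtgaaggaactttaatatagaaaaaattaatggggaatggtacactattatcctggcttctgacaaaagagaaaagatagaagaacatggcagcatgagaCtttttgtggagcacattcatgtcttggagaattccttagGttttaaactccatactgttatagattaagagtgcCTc
Mup-ps14: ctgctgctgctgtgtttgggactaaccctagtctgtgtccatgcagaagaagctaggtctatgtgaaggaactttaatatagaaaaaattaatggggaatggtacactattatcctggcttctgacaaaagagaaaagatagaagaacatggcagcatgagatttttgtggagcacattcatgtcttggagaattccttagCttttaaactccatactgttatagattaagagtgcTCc
The stretch shown has 4 capitals in Mup-ps8 and 3 in Mup-ps14.

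Of the other higher features, 1 lay between genes on chromosome 1. NONMMUT003114.2 (151138185 to 151143841) had 9.64, 9.67, 7.32 and 19.05 FPKM with resveratrol, 28.6, 10.3, 28.8 and 14.1 FPKM on high fat alone, and 1.60, 2.69, 2.27 and 2.76 FPKM on ordinary feed. The resveratrol libraries were above all on ordinary feed and overlapped high fat alone. On the log2 scale it changed by 1.83 against ordinary feed (SE 0.35, limma adjusted p = 0.0389) and -0.75 against high fat alone (SE 0.35, limma adjusted p = 0.306), and high fat alone had 2.58 against ordinary feed (SE 0.35, limma adjusted p = 0.00105). Each of its 3 overlapping tested transcripts missed the threshold between resveratrol and ordinary feed, with changes of 0.66 to 1.06.

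Features near Cd1d1 and Pigt were higher as well. NONMMUT043735.2, 5.97 kb upstream of Cd1d1, which presents lipid antigens to T cells (chromosome 3, 87005408 to 87012283), had 9.69, 8.94, 8.95 and 9.36 FPKM with resveratrol. It had 4.67 to 9.73 FPKM on high fat alone and 5.58, 4.12, 1.77 and 3.08 FPKM on ordinary feed. The resveratrol values spanned less than 1 FPKM and did not overlap ordinary feed (log2 change 1.21, SE 0.23, limma adjusted p = 0.0425). This call was made in 1 of the 8 fits that leave out a library. NONMMUT043736.2, the 1 other tested transcript that overlaps it, was not called (0.93, SE 0.23, limma adjusted p = 0.0959). NONMMUT108279.1, 17.6 kb downstream of Pigt, a subunit of the enzyme that attaches lipid anchors to proteins (chromosome 2, 164525889 to 164527391), had 1.10, 1.17, 2.91 and 1.34 FPKM with resveratrol. It had 0.813 to 1.46 FPKM on high fat alone and 0.424, 0.441, 0.0951 and 0.0661 FPKM on ordinary feed, with a log2 change of 1.03 between resveratrol and ordinary feed (SE 0.19, limma adjusted p = 0.0377). Against high fat alone the changes were 0.32 (SE 0.23) at Cd1d1 and 0.31 (SE 0.19) near Pigt.

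The remaining 5 higher features had log2 changes of 0.75 to 1.02 against ordinary feed. NONMMUT032121.2 overlaps Arhgap26, a GTPase-activating protein gene on chromosome 18 (39352264 to 39364050), and averaged 1.25 ± 0.373 FPKM with resveratrol, 0.886 ± 0.518 on high fat alone and 0.106 ± 0.109 on ordinary feed (SD, n = 4 each). NONMMUT018230.2 overlaps Slc12a7, a potassium and chloride cotransporter gene (chromosome 13, 73763008 to 73763650), and averaged 9.53 ± 1.35, 7.95 ± 1.02 and 4.93 ± 0.536 FPKM in the same order. Its change of 0.82 had the joint second-lowest adjusted p of the 21 (SE 0.13, limma adjusted p = 0.0234). MSTRG.17600.1 (chromosome 17, 15303583 to 15306910) and NONMMUT015589.2 (chromosome 12, 106480311 to 106482230) lay 60.4 kb or more from any coding gene. Their resveratrol means were 1.72 ± 0.267 and 1.62 ± 0.511 FPKM, against 0.344 ± 0.0748 and 0.301 ± 0.104 FPKM on ordinary feed. On high fat alone the means were 1.55 ± 0.392 and 2.09 ± 0.756 FPKM. NONMMUT015590.2, which overlaps NONMMUT015589.2, was not called against ordinary feed (0.83, SE 0.20, limma adjusted p = 0.0951). NONMMUT150355.1 (chromosome 6, 31188085 to 31188438) lies in the interval of the long non-coding RNA gene Lncpint. It averaged 6.74 ± 1.30 FPKM with resveratrol, 4.81 ± 0.694 on high fat alone and 3.55 ± 0.251 on ordinary feed. Its change of 0.75 against ordinary feed (SE 0.14, limma adjusted p = 0.0425) was called in 0 of the 8 fits that leave out a library. The 4 tested features that overlap it were not called, with changes between -0.04 and 0.37. Among them, Lncpint itself changed by 0.08 against ordinary feed (SE 0.19, limma adjusted p = 0.909).

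**Figure D2:**
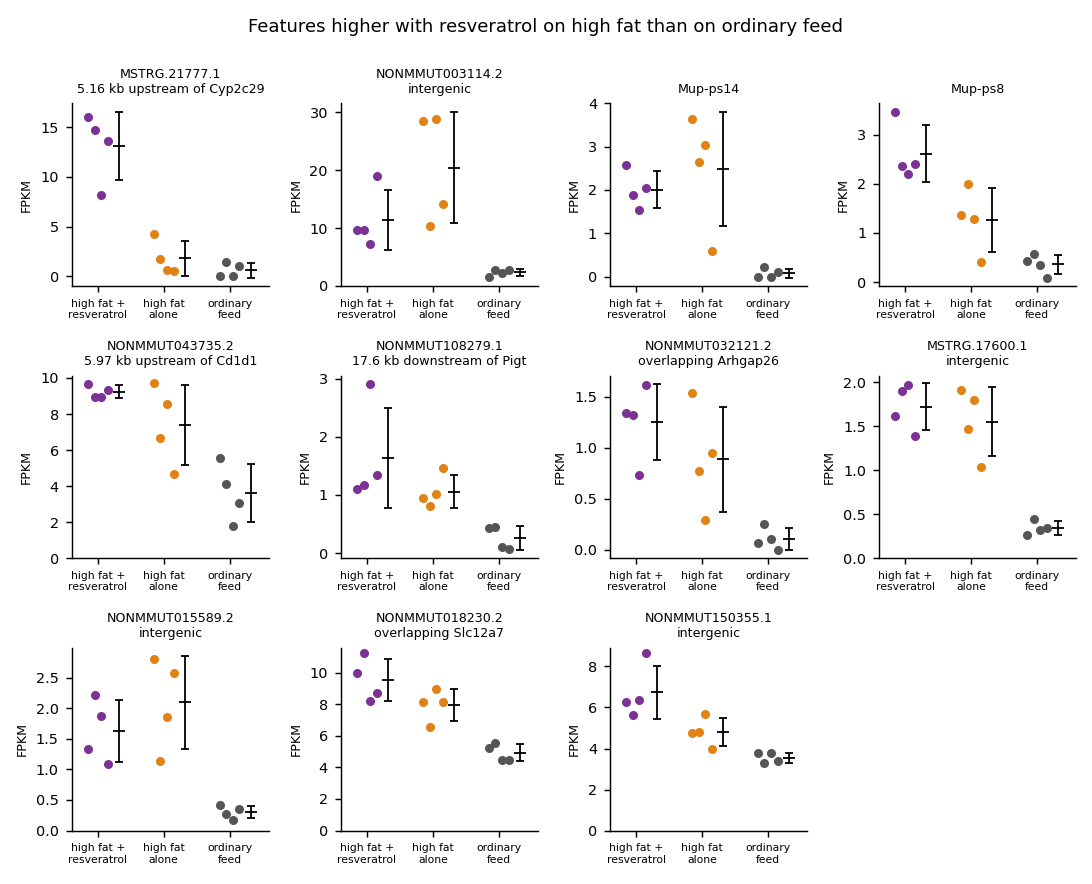
The 11 features that were higher with resveratrol on high fat than on ordinary feed, 1 panel each, with FPKM on the y axis. Points are single libraries (4 per group) and bars are the mean ± SD. The resveratrol libraries lie above those on ordinary feed in all 11 panels, and at MSTRG.21777.1 and Mup-ps8 also above those on high fat alone.

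**Figure D3:**
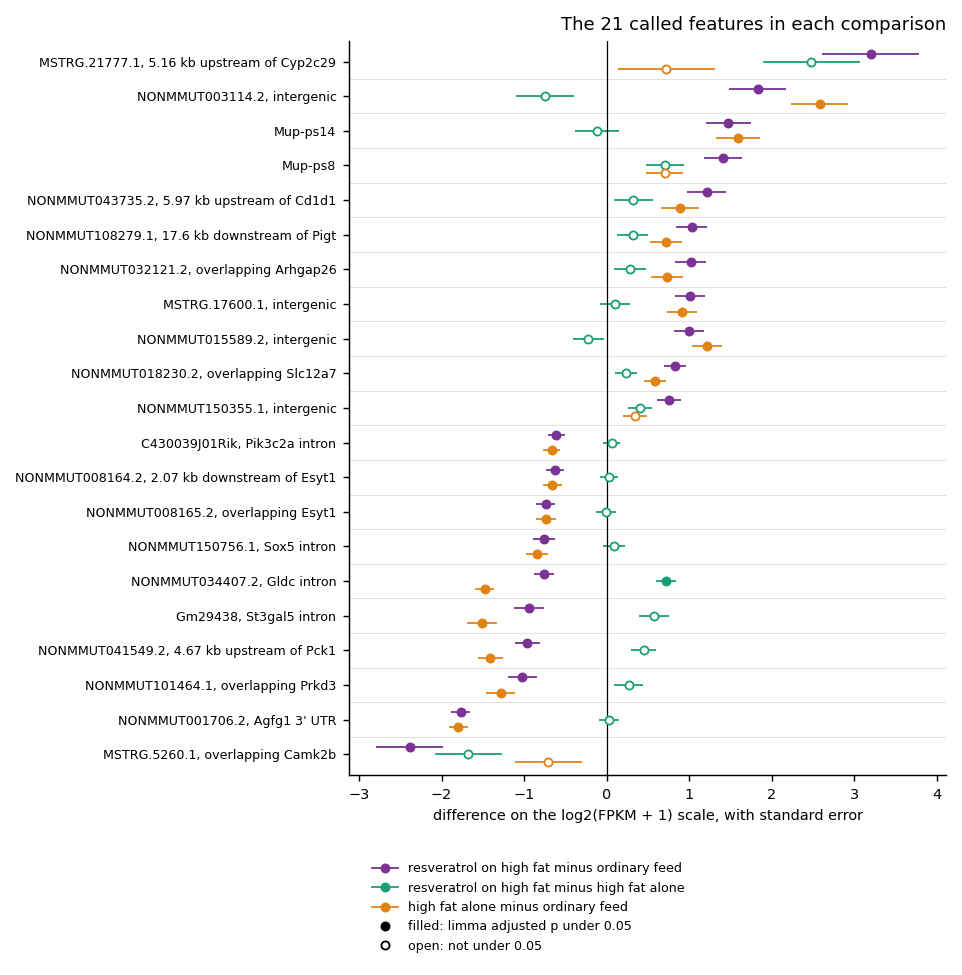
Differences of the 21 called features on the log2(FPKM + 1) scale in the 3 comparisons, with standard errors. Filled points have a limma adjusted p under 0.05. Comparisons share libraries, so the 3 points of a feature are not independent. NONMMUT034407.2 in Gldc has a filled point in all 3, at -0.76, 0.72 and -1.48.

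Features that stood furthest apart between high fat alone and ordinary feed were also followed under resveratrol. With resveratrol, the features at Mis12, Igfbp2, Acnat1, Nrep and Zc3h7a had levels that overlapped ordinary feed and not high fat alone. Those at Dhx40, H2-Q10, Hdc and Map4k4 were below every ordinary-feed library. The pair near Stk19 and the intergenic NONMMUT003114.2 were above every ordinary-feed library. These features were chosen for their difference on high fat alone, so that difference is given as a description, and both comparisons use the same ordinary-feed libraries.

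Mis12 encodes a kinetochore protein, and its 3′ UTR feature NONMMUT010559.2 (chromosome 11, 71025492 to 71027369) had 4.86, 6.20, 8.90 and 6.58 FPKM with resveratrol. It had 0.211, 0.137, 0.163 and 0.121 FPKM on high fat alone, and 4.57, 4.67, 6.36 and 7.59 FPKM on ordinary feed. Metformin libraries had 2.45 to 8.40 FPKM, also above all on high fat alone. Resveratrol differed from ordinary feed by 0.17 (SE 0.26, limma adjusted p = 0.842). In an intron of Igfbp2, whose protein binds insulin-like growth factors, lay NONMMUT001470.2 (chromosome 1, 72832881 to 72834402), with 36.9, 16.6, 9.09 and 15.8 FPKM with resveratrol, 2.00, 3.93, 1.15 and 1.29 FPKM on high fat alone, and 14.1, 18.4, 18.7 and 10.8 FPKM on ordinary feed. Its difference between resveratrol and ordinary feed was 0.19 (SE 0.37, limma adjusted p = 0.888), and 1 resveratrol library lay above and 1 below the ordinary-feed range. The feature 4.47 kb upstream of Acnat1, an acyltransferase gene (NONMMUT047231.2, chromosome 4, 49478386 to 49481012), had 10.8, 11.1, 6.97 and 4.80 FPKM with resveratrol, 3.02, 2.89, 2.25 and 1.49 FPKM on high fat alone, and 11.03, 13.1, 14.6 and 10.6 FPKM on ordinary feed. Resveratrol differed from ordinary feed by -0.56 there (SE 0.23, limma adjusted p = 0.310). All 3 features were called higher with resveratrol than on high fat alone, by 2.70, 2.65 and 1.43 (limma adjusted p = 0.000224, 0.0139 and 0.0314). Of the 8 fits that leave out a library of these groups, 8 called the Mis12 feature, 5 that of Igfbp2 and 4 that of Acnat1. The high-fat libraries by which the features were chosen also enter this comparison.

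A feature overlapping Hdc, the histamine-forming enzyme (NONMMUT146430.1, chromosome 2, 126591782 to 126595454), had 7.51, 8.76, 6.38 and 6.90 FPKM with resveratrol. It had 3.44, 6.00, 4.79 and 2.28 FPKM on high fat alone, and 22.2, 12.7, 24.0 and 14.9 FPKM on ordinary feed. The resveratrol libraries lay between the other groups without overlapping either. The change against ordinary feed was -1.18 and just missed the threshold (SE 0.25, limma adjusted p = 0.0656), and against high fat alone it was 0.76 (SE 0.25, limma adjusted p = 0.194). The 3′ UTR feature of Map4k4, a kinase (NONMMUT000701.2), likewise had 1.56 to 2.54 FPKM with resveratrol, 0.0354 to 0.778 on high fat alone and 2.63 to 4.78 on ordinary feed (-0.66 against ordinary feed, SE 0.33, limma adjusted p = 0.414).

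The feature 4.08 kb upstream of Dhx40, an RNA helicase (NONMMUT011310.2), had 7.01 to 19.1 FPKM with resveratrol, 4.53 to 10.4 on high fat alone and 33.6 to 227 on ordinary feed. Its resveratrol change of -2.93 did not pass (SE 0.76, limma adjusted p = 0.109). NONMMUT029447.2, 5.58 kb downstream of the class Ib histocompatibility gene H2-Q10, had 15.4 to 57.7 FPKM with resveratrol, 9.74 to 30.2 on high fat alone and 69.7 to 111 on ordinary feed (-1.65, SE 0.46, limma adjusted p = 0.137). Gm15441, antisense to the glucose-responsive gene Txnip, had 4.20, 8.43, 8.69 and 2.75 FPKM with resveratrol, 2.16 to 5.11 on high fat alone and 30.3, 5.54, 36.2 and 24.5 FPKM on ordinary feed. A single ordinary-feed library reached into the resveratrol range (-1.69, SE 0.47, limma adjusted p = 0.136). Without ordinary-feed library 2, the change was called at -2.25.

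On the higher side, the partly exonic NONMMUT008655.2 of Egfr, the receptor of epidermal growth factor, had 31.6, 10.99, 65.8 and 41.5 FPKM with resveratrol, 41.9 to 120 on high fat alone and 9.08, 10.0, 9.26 and 19.3 FPKM on ordinary feed. It overlapped both other groups (1.40 against ordinary feed, SE 0.59, limma adjusted p = 0.326), and the intronic NONMMUT008656.2 had 8.70 to 55.4 FPKM with resveratrol and 7.67 to 17.1 on ordinary feed (1.28, SE 0.58, limma adjusted p = 0.361). At the 5′ UTR of Nrep, a neuronal regeneration gene, NONMMUT031874.2 had 0.101 to 1.12 FPKM with resveratrol, 1.80 to 5.65 on high fat alone and 0.0767 to 0.280 on ordinary feed (0.32, SE 0.29, limma adjusted p = 0.706). A feature overlapping Zc3h7a (MSTRG.16066.11) had 1.12 to 4.32 FPKM with resveratrol, 7.94 to 34.9 on high fat alone and 0.668 to 7.12 on ordinary feed (0.32, SE 0.53, limma adjusted p = 0.863). A feature overlapping Aacs, which activates acetoacetate (NONMMUT119417.1), had 0.446, 0.394, 0.453 and 2.75 FPKM with resveratrol, 1.72 to 4.95 on high fat alone and 0 to 0.449 on ordinary feed (0.68, SE 0.33, limma adjusted p = 0.388). The pair downstream of Stk19 had resveratrol changes of 0.79 (NONMMUT029339.2, SE 0.42) and 1.05 (NONMMUT029338.2, SE 0.34), both without overlap with ordinary feed and neither past the threshold.

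Of the 6 features called between resveratrol and high fat alone, 5 were higher and 1 lower, 2 of them not yet described. An intronic Sox5 feature (NONMMUT059409.2, chromosome 6, 144185984 to 144189489) had 1.95, 2.18, 1.84 and 1.48 FPKM with resveratrol, 1.02, 0.825, 0.724 and 0.832 FPKM on high fat alone, and 1.69, 1.96, 2.20 and 1.93 FPKM on ordinary feed. Its resveratrol level overlapped ordinary feed (-0.04, SE 0.11, limma adjusted p = 0.913), unlike that of the other intronic Sox5 feature described above. Within an intron of Tacc1, a gene for a coiled-coil protein of the centrosome, NONMMUT130078.1 (chromosome 8, 25224918 to 25225781) had 0.985, 1.01, 1.33 and 1.26 FPKM with resveratrol, 2.50, 2.64, 3.34 and 2.69 FPKM on high fat alone, and 1.07, 1.26, 1.98 and 1.03 FPKM on ordinary feed. It was lower with resveratrol than on high fat alone by -0.82 (SE 0.13, limma adjusted p = 0.0264) and overlapped ordinary feed (-0.11, SE 0.13, limma adjusted p = 0.770). Scaling changed this group, since under median-ratio scaling 3 features were called higher and 10 lower than on high fat alone.

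**Figure D4:**
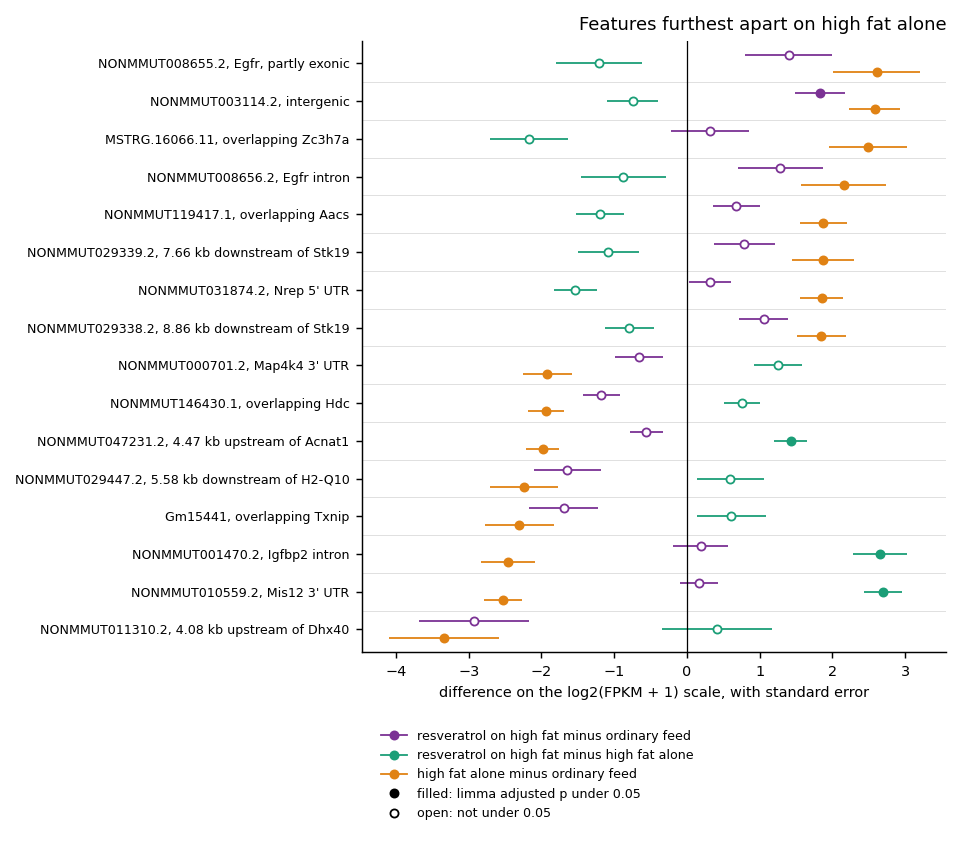
The 16 named features furthest apart between high fat alone and ordinary feed, 8 higher and 8 lower, with their differences in the 3 comparisons on the log2(FPKM + 1) scale and standard errors. Filled points have a limma adjusted p under 0.05. The resveratrol point lies near 0 at Mis12 (0.17) and Igfbp2 (0.19) and at -2.93 for the feature upstream of Dhx40.

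Features at genes of fat synthesis did not pass between resveratrol and ordinary feed. The 3′ UTR feature of Scd1, the desaturase that makes monounsaturated fatty acids (NONMMUT034843.2), was the most abundant of them, at 701, 489, 391 and 1515 FPKM with resveratrol, against 2476, 2231, 1168 and 1316 FPKM on ordinary feed. On high fat alone it had 702 to 2322 FPKM, and 1 resveratrol library lay inside the ordinary-feed range (-1.34, SE 0.63, limma adjusted p = 0.378). The 3′ UTR feature of Fasn, the fatty acid synthase (NONMMUT013146.2), had 1.33 to 7.58 FPKM with resveratrol and 0.884 to 3.64 on ordinary feed (0.50, SE 0.50, limma adjusted p = 0.733). The intronic Acaca feature (NONMMUT011170.2), at the gene of acetyl-CoA carboxylase, changed by 0.27 (SE 0.17, limma adjusted p = 0.544). The 3′ UTR feature of Dgat2, which makes triglycerides (NONMMUT062889.2), had 173, 169, 119 and 234 FPKM with resveratrol, against 105, 108, 113 and 122 FPKM on ordinary feed, with 1 library overlapping (0.60, SE 0.18, limma adjusted p = 0.179). The 3′ UTR feature of Stard4, a cholesterol carrier (NONMMUT031869.2), had 13.4, 15.7, 12.3 and 20.3 FPKM with resveratrol, against 7.90, 7.005, 8.07 and 10.4 FPKM on ordinary feed. Its groups did not overlap, yet the change of 0.80 missed the threshold (SE 0.21, limma adjusted p = 0.109).

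Features of energy sensing and fat oxidation did not pass either. At the 3′ UTR of Sirt1, NONMMUT005901.2 had 3.01, 4.06, 0.0883 and 3.75 FPKM with resveratrol, 3.60, 0.0788, 0.0804 and 0.0558 FPKM on high fat alone, and 3.30, 2.91, 3.18 and 3.68 FPKM on ordinary feed. Single libraries were either near 0 or near 3 and above, and 3 of 4 resveratrol libraries were at the higher level (-0.41, SE 0.59, limma adjusted p = 0.824). The intronic Prkaa2 feature (NONMMUT048447.2), at a catalytic subunit of AMP-activated kinase, had 0.905 to 1.65 FPKM with resveratrol, 1.20 to 3.47 on high fat alone and 0.798 to 1.34 on ordinary feed (0.02, SE 0.20, limma adjusted p = 0.990). NONMMUT033416.2, which starts 0.478 kb past the end of Cpt1a, the carnitine transferase that admits fatty acids to mitochondria, had 7.17, 6.47, 8.53 and 8.58 FPKM with resveratrol, against 13.9, 11.8, 11.2 and 11.9 FPKM on ordinary feed. Those groups did not overlap (-0.61, SE 0.22, limma adjusted p = 0.254). NONMMUT024514.2, 0.288 kb downstream of Ppara, the receptor that drives fat oxidation genes, changed by 0.18 (SE 0.21), the partly exonic Acnat1 feature (NONMMUT047227.2) by 0.37 (SE 0.18) and the feature downstream of Cyp7a1, which opens the bile acid pathway (NONMMUT046036.2), by 0.16 (SE 0.35).

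Among regulators, the feature downstream of Foxa2, a liver transcription factor (NONMMUT147094.1), had 14.9 to 29.0 FPKM with resveratrol, 24.8 to 32.1 on high fat alone and 15.3 to 18.6 on ordinary feed (0.20, SE 0.25, limma adjusted p = 0.798). The partly exonic feature of the clock gene Per3 (NONMMUT050749.2) changed by 0.43 (SE 0.28) and the intronic feature of Clock (NONMMUT052836.2) by -0.29 (SE 0.18). Of the nuclear RNAs, Malat1 had 6.95, 8.37, 151 and 9.98 FPKM with resveratrol and 7.62 to 10.9 on ordinary feed, so that 1 library set the resveratrol mean. Neat1 had 109, 18.9, 10.2 and 18.9 FPKM with resveratrol and 15.7 to 52.2 on ordinary feed. Their changes were 0.90 (SE 0.86) and -0.10 (SE 0.72), and without resveratrol library 3 that of Malat1 was -0.10. Without resveratrol library 1 that of Neat1 was -0.79, and without resveratrol library 3 it was 0.31. Hnf4a and Hdc had no tested feature linked by the rule.

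Across gene groups, the features linked to listed genes stayed below the threshold. Linked here means sharing exon bases with the gene, lying in its intron or within 5 kb of it, or being the listed RNA, and the feature with the highest mean stood for the gene. In 22 lists there were 166 such features, of which 0 were called between resveratrol and ordinary feed by limma, against a background of 0.283%, while 30 had an unadjusted p under 0.05, against a background of 13.2%. Their median change was 0.00, against -0.04 over all tested features. The lowest adjusted p among them was 0.0728. The called transcript upstream of Pck1 is linked to a list gene too, but NONMMUT041547.2 stands for Pck1 there.

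The Mup and male-biased genes had the highest median of the 19 lists with at least 3 linked features. All 7 features were positive, with a median of 0.92, beside -0.04 over all tested features. An unadjusted p under 0.05 was found for 3 of the 7, beside 13.2% of all tested features. They included MSTRG.29540.1 near Mup12 (1.13, SE 0.25, limma adjusted p = 0.0765) and MSTRG.29538.1 near Mup11 (1.11, SE 0.24, limma adjusted p = 0.0728). Those linked to Mup19 (Gm13775) and Mup3 (Gm12909) changed by 1.01 and 0.33. On high fat alone the median of this list was 0.61 against ordinary feed. The sequences of these list features were not compared with each other or with the coding Mup genes, and whether they share reads was not tested.

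Other lists lay closer to the middle, and the single features named from them were chosen after their values were seen. Cholesterol synthesis and transport had a median of 0.41 over 8 features, led by Stard4 at 0.80, with Insig2 at -0.51. Fatty acid oxidation and ketogenesis had 0.18 over 9 features, with Cyp4a10 at -1.002. Fatty acid synthesis had 0.03 over 10, triglyceride assembly 0.09 over 6 and energy sensing 0.00 over 15. The clock list had -0.09 over 11 features, with 0 at an unadjusted p under 0.05, beside -0.44 on high fat alone against ordinary feed. At the lower end of the lists with at least 3 features, periportal hepatocyte genes had -0.49 over 6 features. Gls2 was at -0.65 and Cyp2f2 at -0.26, while Pigr, the most abundant at a mean of 257 FPKM, was positive at 0.14. Respiratory chain genes had -0.33 over 10 features, all 10 negative and 6 with an unadjusted p under 0.05 (13.2% of all tested features had one), among them Atp5b at -0.58 and Atp5c1 at -0.47 (adjusted p 0.373 and 0.236). The list of respiratory chain genes had -0.43 on high fat alone. The glycolysis list had 2 linked features with a median of -0.92 and the pericentral hepatocyte list 2 with a median of 0.38. The female-biased list had none.

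**Figure D5:**
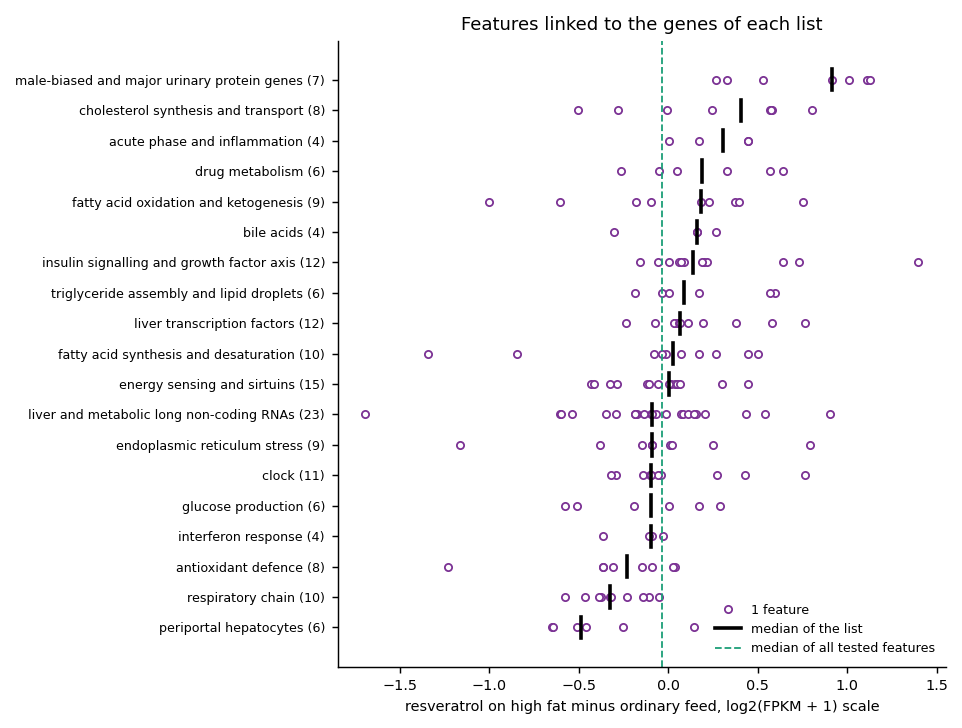
Differences between resveratrol on high fat and ordinary feed for the features linked to each gene list with at least 3 of them, on the log2(FPKM + 1) scale. Open points are single features, none of which passed, black bars are list medians and the dashed line is the median of all tested features, -0.04. Numbers in parentheses count features. Of the 19 lists with at least 3 linked features, which are those drawn, the Mup and male-biased list has the highest median (0.92) and the periportal list the lowest (-0.49).

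Stretches of neighbouring features called on high fat alone, chosen after their values were seen, were followed under resveratrol. With at most 20 kb between tested neighbours, 10 stretches held at least 6 features called between high fat alone and ordinary feed, and 0 held 6 between resveratrol and ordinary feed by limma. The first count is set against 14.6% of all features called and the second against 0.283%, or 21 features in all, so the difference between the counts says nothing of these stretches. Beside Eipr1 (chromosome 12, 28898573 to 29189242), 88 features had a median of -0.25 with resveratrol and -0.85 on high fat alone, both against ordinary feed. With resveratrol 0 of the 88 were called by limma, which says little beside 0.283% of all features, and 0 had an unadjusted p under 0.05, beside 13.2% of all features. Around Foxa2 (chromosome 2, 147936506 to 148040248), 25 features had a median of 0.58 with resveratrol and 1.02 on high fat alone. With resveratrol 9 of the 25 had an unadjusted p under 0.05, beside 13.2% of all features. Between Ctcfl and Pck1 (chromosome 2, 173110818 to 173148687) 13 features had medians of -0.40 and -1.03. Under resveratrol 1 of these was called, NONMMUT041549.2, and 6 had an unadjusted p under 0.05. The 16 features at Tacc1 had medians of 0.07 and 0.59, and 0 had an unadjusted p under 0.05 with resveratrol. Neighbours share reads and regions and are not independent of each other.

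At the level of whole libraries, no measure passed after adjustment over the 6 measures compared. The 7SL RNA, part of the signal recognition particle, took 50.6 ± 2.33% of listed reads with resveratrol and 45.5 ± 2.81% on ordinary feed (SD, n = 4 each, two-sided exact permutation p = 0.0571, adjusted 0.171). The ribosomal RNA locus took 11.4 ± 2.11% and 13.8 ± 0.379% (exact permutation p = 0.0571, adjusted 0.171). The number of features at 1 FPKM or more was 5927 to 6377 with resveratrol, 4274 to 6049 on high fat alone and 6040 to 6468 on ordinary feed. With 4 libraries against 4, the smallest p such a test can give is 0.0286. The fourth library of high fat alone stood apart, with 22.6% of listed reads on the ribosomal RNA locus and a median ratio of 0.691, and without it 38 features were called between resveratrol and ordinary feed, all 21 among them, through the shared estimate of the spread.

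Only 1 of the 21 calls held without each library in turn. Each such fit also has 1 library fewer, and how far that alone lowered the counts was not tested. Leaving out 1 of the 8 libraries at a time gave 1 to 16 called features, of which 1 to 8 were among the 21. The lowest count came without resveratrol library 4, where the Agfg1 feature alone was called, and 2 were called without resveratrol library 1 or ordinary-feed library 3. Of the 21, 8 were called in none of these 8 fits and 12 in 1 to 5 of them.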

How the data were processed

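Liver RNA was sequenced in 16 libraries, 4 per group. The authors deposited 1 file per library with an FPKM value for each of 51024 listed transcripts. Bowtie 0.12.2, Cufflinks 2.1.1 and the GRCm38 (mm10) genome are named in the submitters' processing notes, while the sources used here do not give the annotation release, strand handling, treatment of multi-mapped reads or filters. Multiplied by transcript length, 100% of a library's FPKM values fell on multiples of a single step (tolerance 0.05 read), which gave reads and library totals. Values of an Ensembl gene's transcripts were summed.

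Log2(FPKM + 1) values of all 16 libraries were fitted at once by limma 3.58.1 (R 4.3.3), using a mean-variance trend, 4 group means and 12 residual degrees of freedom. The Benjamini-Hochberg adjustment was made over 7413 features, and called means adjusted p under 0.05. The pseudocount of 1 makes fold changes of low features smaller than those of their FPKM. The fit was checked on simulated data with 200 changed features. Library measures were compared with two-sided exact permutation tests. Features were placed by position against GENCODE M21, also on GRCm38, in which 6306 of 6326 Ensembl transcripts matched and 99.0% of these had identical coordinates.

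Features named were: called between resveratrol and ordinary feed without overlap and with a mean of at least 1 FPKM (up to 12 each way); by the same rule, 8 each way for high fat alone against ordinary feed and up to 6 each way for resveratrol against high fat alone; and, whatever their values, features linked to key genes of lipid and glucose metabolism, energy sensing and the clock. Of overlapping features the one with the larger change was kept. The members, lists and rules were chosen with earlier results of these data known.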

Additional observations from a re-analysis of the deposited data

Results flagged for a closer look

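In groups of 4 libraries, a value was listed when its gap to the next exceeded Dixon's 95% limit, a share of the group's range. Of 183 groups looked at, 14 were listed. Chance gives about 1 in 20 if values follow a normal distribution, which was not tested for these FPKM values. Each listed value was the highest of its group. With resveratrol, 1 library stood above the other 3 at Malat1 (151 FPKM, others 6.95 to 9.98), Neat1 (109 FPKM, others 10.2 to 18.9), Ppara (NONMMUT024514.2, 89.1 FPKM, others 67.0 to 70.3), Aacs (NONMMUT119417.1, 2.75 FPKM, others 0.394 to 0.453), near Pigt (NONMMUT108279.1, 2.91 FPKM, others 1.10 to 1.34) and at Mup-ps8 (3.47 FPKM, others 2.20 to 2.40). The libraries were resveratrol 3, 1, 4, 4, 3 and 1. At Mup-ps8 and near Pigt, both called against ordinary feed, the other 3 resveratrol libraries also lay above all 4 on ordinary feed.

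On high fat alone, the listed libraries were number 4 for the pair near Stk19 (NONMMUT029339.2 at 17.3 FPKM, others 3.07 to 3.47, and NONMMUT029338.2 at 9.90 FPKM, others 2.63 to 3.08), number 1 for Sirt1 (NONMMUT005901.2, 3.60 FPKM, others 0.0558 to 0.0804) and number 2 for Malat1 (72.1 FPKM, others 3.05 to 11.7). On ordinary feed, library 4 was above the others at both Egfr features (NONMMUT008655.2 at 19.3 FPKM, others 9.08 to 10.0, and NONMMUT008656.2 at 17.1 FPKM, others 7.67 to 8.79) and at Per3 (NONMMUT050749.2, 1.61 FPKM, others 0.266 to 0.355), and library 1 at Zc3h7a (MSTRG.16066.11, 7.12 FPKM, others 0.668 to 0.851).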

How the results depend on the processing

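The 21 features called between resveratrol and ordinary feed became 13 with a pseudocount of 0.1, 2 without a filter on low values (49988 features tested), 46 with the filter on the 2 groups alone, 38 without high-fat library 4, 35 with median-ratio scaling and 85 with library weights. Quantile normalization (29), the 2 groups fitted alone (18) and single transcripts (21) stayed within 1.5 times. Of the 21, all 21 were among the calls with library weights, 20 with median-ratio scaling, 17 with quantile normalization, 13 with the lower pseudocount and 9 with the 2 groups alone. Leaving out each library of the 2 groups gave 1 to 16. The 6 calls between resveratrol and high fat alone became 2 without a filter, 33 with the filter on 2 groups, 13 with median-ratio scaling or quantile normalization (3 higher and 10 lower each) and 38 with library weights. Leaving out each library gave 1 to 57, the highest without resveratrol library 4. The 1085 calls between high fat alone and ordinary feed (210 higher and 875 lower) became 274 without a filter, 721 with quantile normalization (338 higher and 383 lower), 449 with the 2 groups alone and 539 to 1181 with 1 library left out. Median-ratio scaling gave 813, with 447 higher and 366 lower. The cause of these shifts was not tested.

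For 55 named features, no called change reversed under any setting run, 244 of 2652 recomputed values lost the call and 41 gained one. The 2652 include values of changes that were not called in the main fit, which cannot lose a call. Of the 244 losses, 178 were between resveratrol and ordinary feed, where 8 values gained a call and 736 stayed the same. For library measures none was called under any setting run. At 7 to 15 reads, or 0 to 3, counting error alone is large, so low features are the least certain. No paired analysis was possible because the labels give no replicate numbers shared between groups.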
